A study of Homo sapiens with 9 samples.

Results

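The lysosomal enzymes and membrane proteins described here are 42 genes of MDA-MB-231 cells: 5 membrane proteins, 12 proteases, 10 glycosidases, 4 sulfatases, 7 proteins of lipid breakdown and transport, 2 other lumenal proteins and 2 transcription factors. They were taken by gene name as known genes of the lysosome, and not by a level or change measured here. Earlier results of these data were known when they were chosen. All 42 are among the 61552 genes listed and among the 16572 genes tested.

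MDA-MB-231 is an established human triple-negative breast cancer cell line, and the cells are labelled wild type. The control cells received phosphate-buffered saline (0 mM 2-DG), and the treated cells 10 mM or 20 mM of 2-deoxy-D-glucose (2-DG), a glucose analogue that hinders glycolysis, each for 24 h with 3 libraries per condition. Nothing in the labels says that the 3 libraries came from separate cultures, so the p-values measure only the spread between these libraries, which may be technical. The comparisons ask how the transcripts of the lysosome respond to each dose, and both doses are set against the same control libraries.

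Lysosomes are acidic organelles in which hydrolases break down proteins, glycans and lipids that arrive by endocytosis and autophagy. Most of the enzymes are glycoproteins that are folded in the endoplasmic reticulum and sent to the lysosome by mannose-6-phosphate tags, while heavily glycosylated membrane proteins line its inner face. TFEB and TFE3 are related transcription factors of the MiT/TFE family that bind E-box motifs in many lysosomal promoters and are known to enter the nucleus when nutrients are short.

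Values are FPKM (reads scaled by gene length and by the library total). Levels of different genes compare only as far as the lengths used hold, and these are not given. For CTSZ the length that turns its values into whole reads was 19384 bases, longer than the gene itself (chr20:58995185-59007247). It was also long for CTSC (24849) and HEXA (15893), so the FPKM of such genes may be too low. A comparison of 1 gene between libraries does not depend on its length. The library totals recovered from the FPKM steps were 35517179, 36650036 and 34300991 in the control, 35138071, 40843638 and 34374980 at 10 mM and 30974968, 39780925 and 33060480 at 20 mM 2-DG. With these depths the 42 genes had between 68 (CTSO) and 91647 (PSAP) recovered reads in a library. The libraries were not equally tight. Read differences between replicates were 26.4 to 56 times the sampling variance at 10 mM, 14.1 to 21.5 times in the control and 4.69 to 6.58 times at 20 mM 2-DG. Library 2 at 10 mM was the highest of its group for 28 of the 42 genes. The 20 mM values are written with up to 18 decimals and the others with up to 9, and a difference in how these files were made cannot be told apart from the dose.

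Marker genes of the cell line were read first. Of 6 genes known to be expressed in it, VIM, which encodes the filament vimentin, was at 285 FPKM in the control and 274 at 20 mM 2-DG and was not called. CAV1 (103 to 62.4 FPKM, log2 fold change -0.71, adjusted p = 2.2e-05 by limma), CD44 (69.8 to 56.6 FPKM, log2 fold change -0.30, adjusted p = 0.00828) and TGFBI (10.3 to 7.87 FPKM, log2 fold change -0.34, adjusted p = 0.0117) fell at 20 mM, and the summed level of the 6 had a ratio of 0.851 to the control. Among genes known to be low or absent, the hormone receptor genes ESR1 and PGR were at 0.00429 and 0.00754 FPKM over the 9 libraries, and the epithelial cadherin gene CDH1 fell (0.365 to 0.0686 FPKM, log2 fold change -0.35, adjusted p = 0.000207 by limma). The receptor gene ERBB2, on the same list, was not absent, at 6.83 FPKM, and fell at 20 mM 2-DG (8.81 to 5.76 FPKM, log2 fold change -0.54, adjusted p = 0.000385 by limma). Macrophages are rich in lysosomal enzymes, so 10 macrophage and leukocyte markers were also read. Their summed level was 4.57, 3.65 and 3.13 FPKM in the control libraries, 1.97, 3.19 and 2.24 at 10 mM and 2.29, 1.70 and 1.38 at 20 mM 2-DG. AIF1, MARCO and FCGR3A were listed at 0 in all 9 libraries, and CD14 was the most abundant (3.05 FPKM in the control and 1.47 at 20 mM 2-DG). The 2 markers tested, CD14 and CSF1R, both fell at 20 mM by limma, and their part in the results below was not tested. The 6 fibroblast markers summed to 1.93, 1.76 and 1.69 FPKM in the control, 1.29, 1.25 and 1.26 at 10 mM and 1.68, 1.39 and 1.25 at 20 mM 2-DG, mostly COL1A1. Of the 2 tested, COL1A1 was not called at either dose and PDGFRB was called lower at both. Its log2 fold change was -0.20 at each dose (adjusted p = 0.0339 at 10 mM and 0.0285 at 20 mM by limma).

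The 42 genes spanned a wide range of levels. Over the 9 libraries PSAP was the most abundant at 644 FPKM, followed by CD63 at 415, GRN at 181 and CTSD at 113, the 4 genes over 100 FPKM. The median gene was at 12.9 FPKM. The 7 genes under 2 FPKM were CTSH, CTSK, CTSO, HEXA, MANBA, IDS and TFEB, with CTSO lowest at 0.386. Among the cathepsins, CTSD, CTSL and CTSB carried most of the FPKM, while CTSK and CTSS, which are typical of osteoclasts and antigen-presenting cells, were low. That order, like the other ranks of level given here, rests on the gene lengths used for the FPKM. In recovered reads, summed over the control libraries, CTSZ (74713) was above CTSB (72330), CTSD (65911) and CTSL (26589). The 42 levels together made up 1932 FPKM in the control (SD 62.0), 2188 with 10 mM (SD 177) and 2271 with 20 mM 2-DG (SD 9.02; n = 3 libraries each), a ratio of 1.175 between 20 mM and the control. Most of that difference lay in PSAP and CD63, singled out after their values were seen, whose joint level had a ratio of 1.322, while the other 40 genes together had a ratio of 1.049. FPKM measures a share of the library, and in bulk RNA fewer cells of a type and less RNA per cell cannot be told apart.

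**Figure D1:**
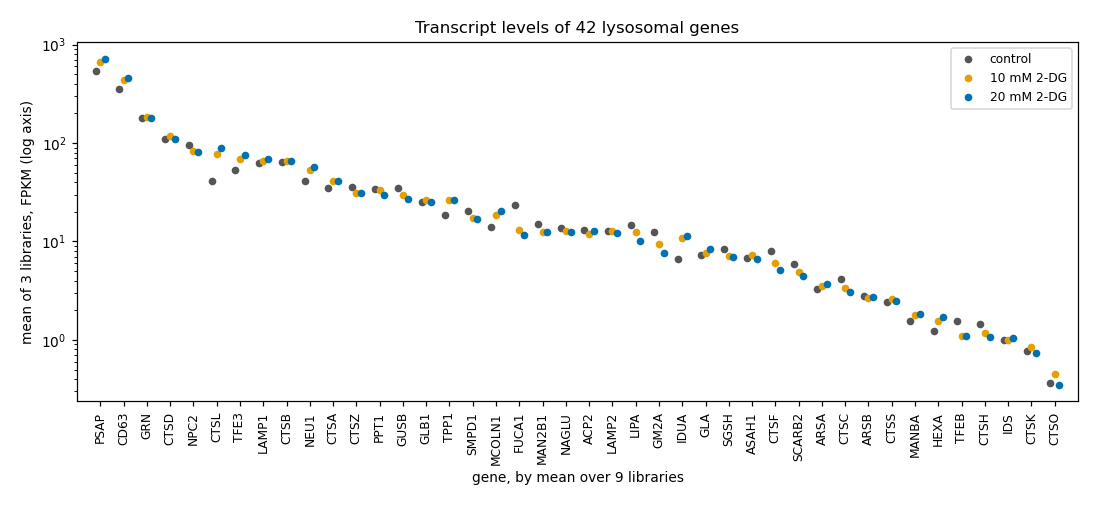
Mean FPKM of 3 libraries on a log axis for each of the 42 genes, ordered by the mean over 9 libraries, with control, 10 mM and 20 mM 2-DG in separate colours. PSAP and CD63 lead at all 3 conditions, CTSO is lowest, and the colours separate most clearly for CTSL, FUCA1 and IDUA.

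The promoters were read because MiT/TFE factors are known to bind E-box letters there. Windows of 300 bases, from 250 before to 50 after a gene's start, came from a set of RefSeq (GRCh38.p14) promoters. The set held 30 of the 42 genes, in 45 windows, since 7 genes have more than 1 listed start. The promoters of LAMP2, CTSB, CTSK, CTSO, CTSS, HEXA, MANBA, NAGLU, SGSH, ARSA, PSAP and ASAH1 were not analysed here. Each motif searched, CACGTG, TCACGTGA and a 10-letter form with G before and C after the 8 letters, reads the same on both strands, and each shorter one lies within the longer ones. CACGTG was in a window of 8 of the 30 genes (26.7%), against 8.77% of 27305 genes with a promoter and 12.2% of the 11335 that were tested for expression. By window the share was 8 of 45 (17.8%) against 7.26% of 35116, and 9.09% of the 16412 windows of genes tested. The 8 genes were ARSB, NEU1, CTSD, CTSF, CD63, LAMP1, MCOLN1 and CTSA, and for CD63 it was in 1 of 8 windows. TCACGTGA was in 3 of the 30 genes (10%), LAMP1, MCOLN1 and CTSA, against 1.18% of all genes and 2.13% of those tested, and the 10-letter form in MCOLN1 alone (3.33%) against 0.421% and 0.829%. The genes were also split by their limma call at 20 mM 2-DG, as defined below, beside the 12.2% of genes tested. CACGTG was in 5 of the 9 higher genes with a promoter, in 1 of the 14 lower genes (CTSF) and in 2 of the 7 that were not called (ARSB and CTSD). By window it was in 5 of 17, 1 of 19 and 2 of 9. These counts are small, the split uses calls from these data, and a difference between its parts was not tested. These are matches of letters, and binding was not measured.

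The promoters that hold the 8-letter motif are shown with those of NEU1 and CTSF, a higher and a lower gene with CACGTG, and of CTSL and FUCA1, which changed most and hold none of the 3 motifs in this window. The windows are MCOLN1 (chr19:7522374-7522673, plus strand), LAMP1 (chr13:113296989-113297288, plus strand), CTSA (chr20:45891085-45891384, plus strand), NEU1 (chr6:31862772-31863071, minus strand), CTSF (chr11:66568557-66568856, minus strand), CTSL (chr9:87725869-87726168, plus strand) and FUCA1 (chr1:23868241-23868540, minus strand). Each runs 5′ to 3′ on the gene's strand, and capitals mark the longest of the motifs found at each place.
MCOLN1: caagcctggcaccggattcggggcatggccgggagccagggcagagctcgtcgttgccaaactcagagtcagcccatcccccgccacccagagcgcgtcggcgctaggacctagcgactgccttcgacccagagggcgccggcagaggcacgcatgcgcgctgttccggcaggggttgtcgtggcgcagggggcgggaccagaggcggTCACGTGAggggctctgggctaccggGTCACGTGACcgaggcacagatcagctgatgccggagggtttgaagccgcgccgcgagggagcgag
LAMP1: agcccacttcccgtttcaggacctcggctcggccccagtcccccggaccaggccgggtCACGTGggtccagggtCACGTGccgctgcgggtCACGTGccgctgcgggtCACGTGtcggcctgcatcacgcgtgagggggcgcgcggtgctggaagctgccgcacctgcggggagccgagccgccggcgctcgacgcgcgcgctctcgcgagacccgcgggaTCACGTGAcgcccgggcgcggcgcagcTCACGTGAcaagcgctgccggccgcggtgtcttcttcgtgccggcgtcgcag
CTSA: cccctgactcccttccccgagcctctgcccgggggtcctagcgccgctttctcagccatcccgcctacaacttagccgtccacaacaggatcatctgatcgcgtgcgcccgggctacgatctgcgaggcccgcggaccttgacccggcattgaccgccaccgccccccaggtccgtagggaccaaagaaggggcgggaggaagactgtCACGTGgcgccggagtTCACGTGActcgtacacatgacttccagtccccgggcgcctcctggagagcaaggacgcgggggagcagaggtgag
NEU1: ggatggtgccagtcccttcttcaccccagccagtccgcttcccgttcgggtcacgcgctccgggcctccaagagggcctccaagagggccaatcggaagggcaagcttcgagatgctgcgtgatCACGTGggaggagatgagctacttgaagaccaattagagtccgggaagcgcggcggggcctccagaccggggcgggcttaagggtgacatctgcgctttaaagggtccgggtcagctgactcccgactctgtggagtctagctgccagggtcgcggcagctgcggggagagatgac
CTSF: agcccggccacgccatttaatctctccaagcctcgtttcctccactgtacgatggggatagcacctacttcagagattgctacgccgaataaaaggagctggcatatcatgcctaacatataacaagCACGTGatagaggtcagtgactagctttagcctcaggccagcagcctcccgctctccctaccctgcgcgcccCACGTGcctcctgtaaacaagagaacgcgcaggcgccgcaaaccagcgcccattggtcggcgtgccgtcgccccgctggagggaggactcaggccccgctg
CTSL: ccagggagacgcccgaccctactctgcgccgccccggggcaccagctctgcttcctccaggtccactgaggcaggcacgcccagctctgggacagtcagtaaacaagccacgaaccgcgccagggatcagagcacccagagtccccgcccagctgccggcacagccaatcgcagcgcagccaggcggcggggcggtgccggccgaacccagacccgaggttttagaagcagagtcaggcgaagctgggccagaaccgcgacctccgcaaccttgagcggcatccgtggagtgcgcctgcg
FUCA1: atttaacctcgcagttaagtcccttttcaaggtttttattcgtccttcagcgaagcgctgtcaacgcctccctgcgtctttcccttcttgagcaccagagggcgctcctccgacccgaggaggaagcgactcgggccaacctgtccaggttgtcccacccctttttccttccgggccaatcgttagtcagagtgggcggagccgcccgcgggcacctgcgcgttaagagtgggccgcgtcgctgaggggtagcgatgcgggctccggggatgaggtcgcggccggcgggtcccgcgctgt
In MCOLN1 the 10-letter form begins 16 bases before the start and the TCACGTGA 42 bases before it. LAMP1 has 6 matches, of which the TCACGTGA pair begins 29 and 2 bases before the start. In CTSA the TCACGTGA begins 26 bases and the CACGTG 42 bases before the start.

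At 20 mM 2-DG the lysosomal genes moved in both directions. A gene was called when limma's moderated test on log2(FPKM + 1) gave a Benjamini-Hochberg adjusted p under 0.05 over all 16572 genes, and fold changes are on that scale, which understates the change of low genes. Of the 42 genes 25 (59.5%) were called at 20 mM 2-DG, against 37% of all genes tested. The rises numbered 11 (26.2%, against 15.4% of all genes) and the falls 14 (33.3%, against 21.6%), and 17 genes were not called. Well-expressed genes were called more often in general: among genes of at least 1 FPKM in every library the share was 47%, and among the 37 lysosomal genes of that level 62.2%. The median log2 fold change of the 42 was -0.015, beside -0.021 over all genes, and it was above 0 with median-ratio factors (0.024) and without 20 mM library 1 (0.010). In 26 of the 42 genes the 20 mM libraries did not overlap the control libraries (11 higher and 15 lower), against 53.3% of all genes (23.3% higher and 29.9% lower). An unadjusted p under 0.05 was reached by 26 of the 42 with limma, against 46% of all genes. Only CTSL of the 42 passed the fold-change threshold of 1 with an unadjusted p under 0.05, where 2.92% of all genes did (0.965% higher and 1.96% lower).

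At 10 mM 2-DG 19 of the 42 genes (45.2%) were called, against 29.7% of all genes, with 8 higher (12.1% of all genes) and 11 lower (17.5%). With only the control and 10 mM libraries in the fit, 6 of the rises and 2 of the falls were still called. The share of falls was then no longer above that of all genes, whose count in that fit is given in the last section. Among genes of at least 1 FPKM in every library the share was 39%, and among the 37 lysosomal genes of that level 51.4%. The 10 mM libraries did not overlap the control in 22 of the 42 genes, 10 higher and 12 lower, against 40.5% of all genes (17.8% and 22.7%). By the thresholds of fold and unadjusted p, limma called 0 of the 42 at 10 mM, against 1.74% of all genes (0.579% higher and 1.16% lower), while 22 of the 42 had an unadjusted p under 0.05 (40.4% of all genes), and limma-voom on recovered reads called 0 as well. The median log2 fold change was 0.024, beside -0.011 over all genes, and -0.0052 with TPM. Every gene called at 10 mM was also called at 20 mM in the same direction, in comparisons that share the control libraries. The balance of rises and falls depended on the scaling. With median-ratio factors in place of the library total, the split was 11 higher and 7 lower at 20 mM (17.6% and 18.5% of all genes) and 8 higher and 4 lower at 10 mM (13.5% and 15%), and CTSH, CTSZ, MAN2B1, NPC2, PPT1, SMPD1 and TFEB were no longer called at 20 mM.

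**Figure D2:**
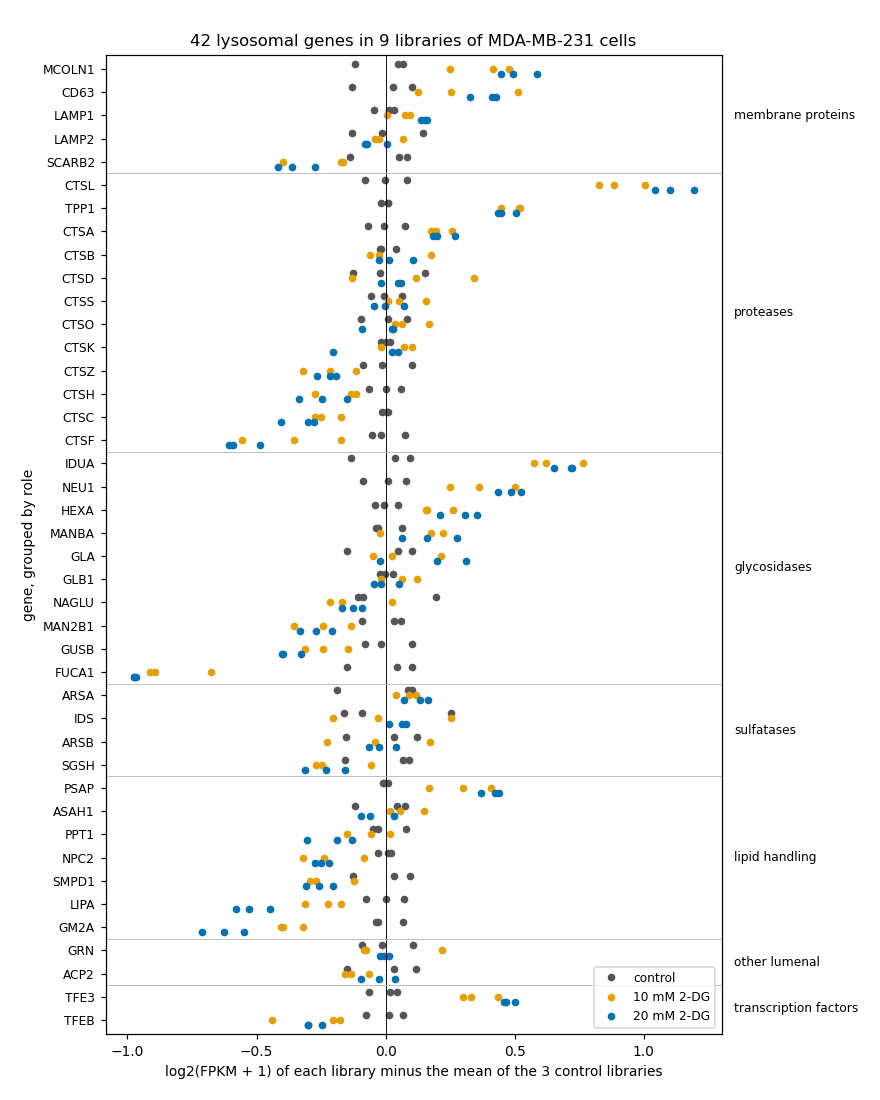
Each point is 1 library, drawn as log2(FPKM + 1) minus the mean of the 3 control libraries, for the 42 genes grouped by role. The 20 mM points of CTSL and IDUA lie farthest right and those of FUCA1, GM2A and CTSF farthest left, while CTSB, CTSD and GRN overlap the control.

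Of the 5 membrane proteins 3 were called higher and 1 lower at 20 mM 2-DG (15.4% and 21.6% of all genes), and 1 higher at 10 mM. MCOLN1 (ENSG00000090674, chr19:7522626-7534009, plus strand) encodes mucolipin-1, a channel that releases calcium from lysosomes. Its levels were 14.8, 14.6 and 12.9 FPKM in the control libraries, 19.1, 19.9 and 16.9 at 10 mM and 21.6, 20.2 and 19.5 at 20 mM 2-DG. All 6 treated libraries lay above the control range. On the log2 scale the change was 0.51 at 20 mM (95% interval 0.33 to 0.69, adjusted p = 0.000815 by limma) and 0.38 at 10 mM (adjusted p = 0.00553). LAMP1, an abundant glycoprotein of the lysosomal membrane, was at 63.9, 63.0 and 60.5 FPKM in the control libraries, 66.8, 65.8 and 62.8 at 10 mM and 68.8, 69.6 and 69.8 at 20 mM 2-DG. Its 20 mM libraries were all above the control and its 10 mM libraries overlapped it, and the log2 fold change was 0.15 at 20 mM (95% interval 0.039 to 0.26, adjusted p = 0.0381 by limma) and 0.059 at 10 mM (adjusted p = 0.413). LAMP1 was called in 9 of the 18 settings run, and lost its call with TPM scaling (adjusted p = 0.104 by limma), the replicate block (0.0661) and limma-voom (0.0713). LAMP2, its partner that also serves chaperone-mediated autophagy, was at 11.6, 12.6 and 14.2 FPKM in the control libraries, 13.4, 12.5 and 12.4 at 10 mM and 12.1, 12.02 and 12.8 at 20 mM 2-DG. The groups overlapped, and the log2 fold change of -0.049 at 20 mM (95% interval -0.22 to 0.12) was not called and changed sign with median-ratio factors (0.0029). CD63, a tetraspanin of late endosomes and exosomes, rose from 352 ± 28.8 FPKM to 460.2 ± 17.3 FPKM (SD, n = 3 each), with a log2 fold change of 0.39 (adjusted p = 0.0163 by limma), was called in 14 of the 18 settings and was not called at 10 mM (adjusted p = 0.0601).

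SCARB2 went the other way. It encodes the receptor LIMP-2, which carries glucocerebrosidase to the lysosome (ENSG00000138760, chr4:76158733-76234536, minus strand). SCARB2 was at 5.30, 6.20 and 6.35 FPKM in the control libraries, 5.19, 4.26 and 5.15 at 10 mM and 4.19, 4.39 and 4.73 at 20 mM 2-DG. No treated library reached the lowest control library. In log2 units the change was -0.35 at 20 mM (95% interval -0.56 to -0.14, adjusted p = 0.0162 by limma) and -0.24 at 10 mM (adjusted p = 0.0812), so the fall was called at the higher dose, in 14 of the 18 settings. Whether the doses differ in it is given by their own comparison below.

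Among the 12 proteases 3 rose (25%, against 15.4% of all genes) and 4 fell (33.3%, against 21.6%) at 20 mM 2-DG, and the largest change of the 42 genes was that of CTSL. CTSL (ENSG00000135047, chr9:87725519-87731393, plus strand) encodes cathepsin L, a cysteine endopeptidase. It was at 43.3, 38.6 and 40.8 FPKM in the control libraries, 73.2, 82.9 and 76.3 at 10 mM and 94.6, 88.8 and 85.3 at 20 mM 2-DG. The 3 groups did not overlap, with the 20 mM libraries highest. Its log2 fold change reached 1.11 at 20 mM (95% interval 0.96 to 1.27, adjusted p = 2.47e-06 by limma) and 0.91 at 10 mM (adjusted p = 1.6e-05), a ratio of mean FPKM of 2.191 at 20 mM. TPP1 (ENSG00000166340, chr11:6612763-6619485, minus strand), a tripeptidyl peptidase that is lost in a neuronal ceroid lipofuscinosis, was at 18.8, 18.4 and 18.8 FPKM in the control libraries, 27.1, 25.8 and 27.2 at 10 mM and 25.8, 25.6 and 26.9 at 20 mM 2-DG. The control libraries were tight and the doses overlapped each other. The log2 fold change of TPP1 was 0.46 at 20 mM (95% interval 0.35 to 0.58, adjusted p = 8.77e-05 by limma) and 0.50 at 10 mM (adjusted p = 8.95e-05). CTSA, a carboxypeptidase that protects NEU1 and GLB1 in a complex, rose from 35.2 ± 1.81 FPKM to 41.0 ± 1.30 FPKM (SD, n = 3 each), a log2 fold change of 0.22 (adjusted p = 0.0128 by limma).

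CTSF (ENSG00000174080, chr11:66563463-66568841, minus strand), another cysteine protease, fell. Its levels were 8.47, 7.87 and 7.66 FPKM in the control libraries, 5.12, 6.98 and 6.03 at 10 mM and 4.91, 5.43 and 4.98 at 20 mM 2-DG. The lowest control library was above every treated library, and the 10 mM libraries were spread widely. For CTSF the log2 fold change was -0.56 at 20 mM (95% interval -0.78 to -0.34, adjusted p = 0.00166 by limma) and -0.36 at 10 mM (adjusted p = 0.0206, called in 15 of the 18 settings). CTSC, which activates serine proteases of granules, fell with a log2 fold change of -0.33 at 20 mM (adjusted p = 0.00794 by limma). CTSH, an aminopeptidase, and CTSZ, a carboxypeptidase, had -0.24 (adjusted p = 0.0455) and -0.22 (adjusted p = 0.0298), also by limma, and were called in 4 and 11 of the 18 settings. CTSD, the main aspartic protease of the lysosome, was at 120.5, 99.1 and 107 FPKM in the control libraries, 98.9, 138 and 118 at 10 mM and 113, 112 and 107 at 20 mM 2-DG. CTSB, an abundant cysteine protease, was at 66.3, 63.5 and 63.6 FPKM in the control libraries, 61.7, 72.8 and 63.3 at 10 mM and 63.3, 65.0 and 69.4 at 20 mM 2-DG. For both, the treated libraries overlapped the control, and library 2 at 10 mM was the highest of all 9. At 20 mM the log2 fold change was 0.031 for CTSD (95% interval -0.22 to 0.28) and 0.031 for CTSB (95% interval -0.13 to 0.19), and neither was called. CTSK, CTSO and CTSS were not called at either dose. CTSD shares 1304 exon bases (41.7%) with AC068580.4 on the same strand, at 0.320 FPKM in the control and 0.744 at 20 mM, and CTSA 1038 (17.7%) with NEURL2, so their values are uncertain to that extent.

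**Figure D3:**
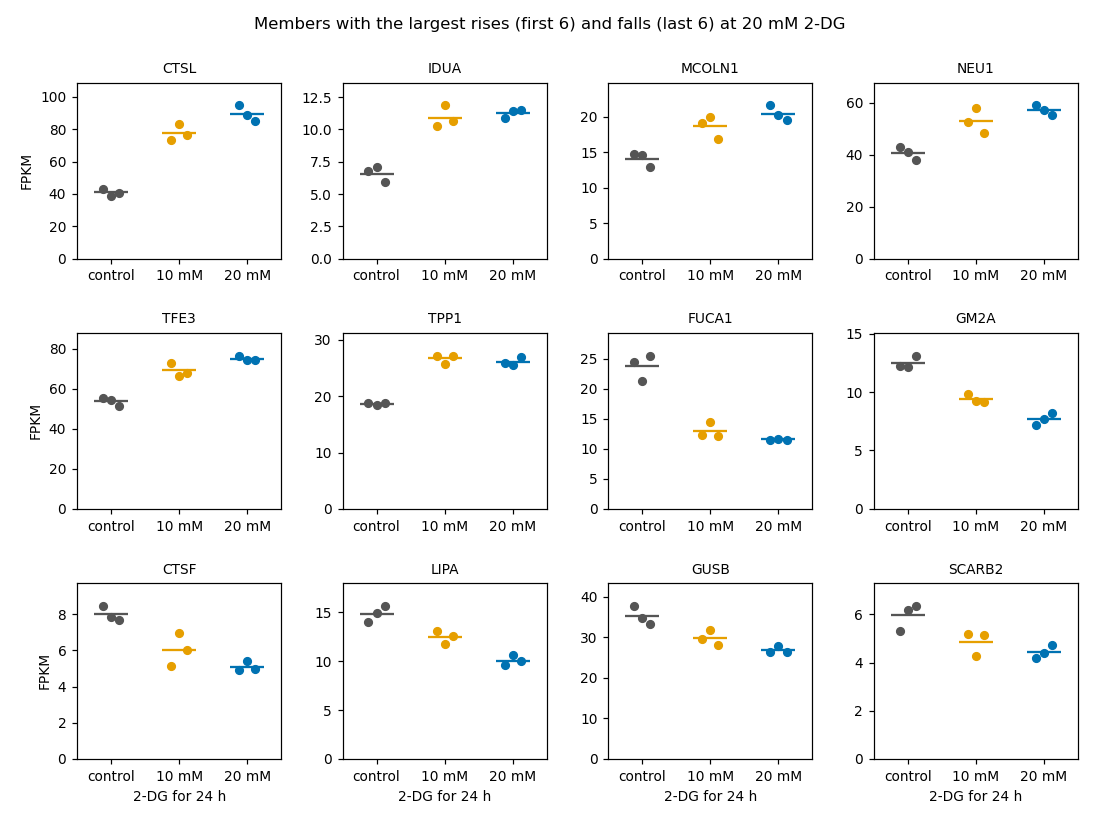
FPKM of each library (points) and group means (lines) at 0, 10 and 20 mM 2-DG for the 6 genes with the largest rises and the 6 with the largest falls at 20 mM, each axis starting at 0. CTSL goes from a mean of 40.9 to 89.6 FPKM and FUCA1 from 23.8 to 11.6.

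The 10 glycosidases were split, with 3 higher (30%, against 15.4% of all genes) and 3 lower (30%, against 21.6%) at 20 mM 2-DG. IDUA (ENSG00000127415, chr4:986997-1004506, plus strand) encodes the iduronidase that trims heparan and dermatan sulfate. IDUA was at 6.77, 7.08 and 5.91 FPKM in the control libraries, 10.3, 11.9 and 10.6 at 10 mM and 10.9, 11.4 and 11.5 at 20 mM 2-DG. Every treated library was above the control, and the doses overlapped. The log2 fold change of IDUA was 0.70 at 20 mM (95% interval 0.52 to 0.87, adjusted p = 0.000122 by limma) and 0.65 at 10 mM (adjusted p = 0.000264). Its exons share 534 bases (13.3% of them) with SLC26A1 on the opposite strand, which was at 0.930 FPKM in the control and 1.81 at 20 mM, so IDUA is uncertain to that extent. NEU1 (ENSG00000204386, chr6:31857659-31862906, minus strand), the lysosomal sialidase, was at 43.0, 41.0 and 38.2 FPKM in the control libraries, 52.6, 58.1 and 48.6 at 10 mM and 59.0, 57.4 and 55.5 at 20 mM 2-DG. Control and treated libraries of NEU1 were apart at both doses. Its log2 fold change was 0.48 at 20 mM (95% interval 0.32 to 0.65, adjusted p = 0.000711 by limma) and 0.37 at 10 mM (adjusted p = 0.00432). HEXA, the alpha subunit of beta-hexosaminidase, rose from 1.22 ± 0.0700 FPKM to 1.72 ± 0.136 FPKM (SD, n = 3 each). These low values rest on a length of 15893 bases. Its log2 fold change was 0.29 at 20 mM (adjusted p = 0.0167 by limma), and HEXA was called in 15 of the 18 settings.

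FUCA1 (ENSG00000179163, chr1:23845077-23868294, minus strand) had the largest fall. It encodes the alpha-L-fucosidase that removes fucose from glycoproteins and glycolipids. FUCA1 was at 24.5, 21.3 and 25.5 FPKM in the control libraries, 12.3, 14.5 and 12.1 at 10 mM and 11.6, 11.6 and 11.5 at 20 mM 2-DG. The treated libraries were all well below the control, and the 20 mM libraries were nearly equal. For FUCA1 the log2 fold change was -0.97 at 20 mM (95% interval -1.16 to -0.78, adjusted p = 2.11e-05 by limma) and -0.83 at 10 mM (adjusted p = 9.38e-05), a ratio of mean FPKM of 0.487 at 20 mM. It passed the fold threshold of 1 with a pseudocount of 0.1, with TPM, with limma-voom and without control library 2. GUSB (ENSG00000169919, chr7:65960684-65982314, minus strand), beta-glucuronidase, was at 37.8, 34.7 and 33.2 FPKM in the control libraries, 29.6, 31.7 and 28.1 at 10 mM and 26.5, 27.8 and 26.4 at 20 mM 2-DG. The groups were apart at both doses, with a log2 fold change of -0.38 at 20 mM (95% interval -0.52 to -0.23, adjusted p = 0.00165 by limma) and -0.23 at 10 mM (adjusted p = 0.0238, called in 13 of the 18 settings). GUSB has 19 named pseudogenes, the highest at a mean of 0.780 FPKM, so reads may be split between copies. MAN2B1, an alpha-mannosidase, fell by 0.27 on the log2 scale (adjusted p = 0.0172 by limma) in 13 of the 18 settings. GLA, GLB1, MANBA and NAGLU, which remove galactose, mannose and N-acetylglucosamine residues, were not called, with log2 fold changes from -0.13 (NAGLU) to 0.17 (MANBA) at 20 mM.

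None of the 4 sulfatases was called, where 37% of all genes were at 20 mM and 29.7% at 10 mM 2-DG. IDS and SGSH, which act on heparan sulfate, had log2 fold changes of 0.051 (95% interval -0.25 to 0.35) and -0.23 (95% interval -0.44 to -0.029) at 20 mM 2-DG, and ARSA and ARSB, which act on sulfatide and dermatan sulfate, 0.12 (95% interval -0.091 to 0.33) and -0.017 (95% interval -0.28 to 0.25). The count of 0 by limma stood beside 1 gene with an unadjusted p under 0.05, SGSH (adjusted p = 0.072), whose 20 mM libraries were all below the control, and limma-voom called 0 of them too.

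Of the 7 proteins of lipid breakdown and transport 5 were called lower (71.4%, against 21.6% of all genes) and 1 higher at 20 mM 2-DG, and with median-ratio factors 2 of the 5, GM2A and LIPA, were still called. GM2A (ENSG00000196743, chr5:151212150-151270440, plus strand), the activator that presents ganglioside GM2 to hexosaminidase, was at 12.2, 12.1 and 13.1 FPKM in the control libraries, 9.80, 9.22 and 9.16 at 10 mM and 7.22, 7.72 and 8.20 at 20 mM 2-DG. The groups fell in the order of dose with no overlap between them. The log2 fold change of GM2A was -0.63 at 20 mM (95% interval -0.78 to -0.48, adjusted p = 8.05e-05 by limma) and -0.37 at 10 mM (adjusted p = 0.00257). LIPA (ENSG00000107798, chr10:89213569-89414557, minus strand), the acid lipase for cholesteryl esters and triglycerides, was at 14.0, 14.9 and 15.7 FPKM in the control libraries, 13.0, 11.8 and 12.6 at 10 mM and 9.60, 10.6 and 9.99 at 20 mM 2-DG. Here too the 3 groups did not overlap. For LIPA the log2 fold change was -0.52 at 20 mM (95% interval -0.67 to -0.37, adjusted p = 0.000264 by limma) and -0.24 at 10 mM (adjusted p = 0.0245, called in 12 of the 18 settings). SMPD1, acid sphingomyelinase, NPC2, which binds cholesterol, and PPT1, which removes palmitate from proteins, fell less, with -0.26 (adjusted p = 0.0222), -0.25 (adjusted p = 0.0129) and -0.21 (adjusted p = 0.0356) at 20 mM by limma. PPT1 shares 1189 exon bases (23.4%) with CAP1 on the opposite strand, a gene at 171 FPKM in the control, and strand use in counting is not given in the sources used here, so its value is uncertain. ASAH1, acid ceramidase, was not called (-0.041, 95% interval -0.21 to 0.13).

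PSAP was the exception among the lipid genes. It encodes prosaposin, the precursor of the saposins that help enzymes reach sphingolipids. PSAP was at 542, 547 and 539 FPKM in the control libraries, 668, 720.3 and 609.9 at 10 mM and 728, 702 and 737 at 20 mM 2-DG. Each treated library was above all control libraries, which were nearly equal. Its log2 fold change was 0.41 at 20 mM (95% interval 0.23 to 0.59, adjusted p = 0.00313 by limma) and 0.29 at 10 mM (adjusted p = 0.022, called in 13 of the 18 settings). GRN, progranulin, which binds prosaposin, was at 194, 179 and 169 FPKM in the control libraries, 171, 210.0 and 169.8 at 10 mM and 177, 179.7 and 182 at 20 mM 2-DG. The groups overlapped, and the log2 fold change of GRN was -0.005 (95% interval -0.20 to 0.19) at 20 mM, of the opposite sign with median-ratio factors (0.050). ACP2, an acid phosphatase, was not called either (-0.027).

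The transcription factors moved in opposite directions. TFE3 (ENSG00000068323, chrX:49028726-49043486, minus strand) was at 55.5, 54.4 and 51.4 FPKM in the control libraries, 73.1, 66.3 and 67.9 at 10 mM and 76.5, 74.2 and 74.6 at 20 mM 2-DG. Control and treated libraries did not overlap. The log2 fold change of TFE3 was 0.47 at 20 mM (95% interval 0.35 to 0.60, adjusted p = 0.000151 by limma) and 0.36 at 10 mM (adjusted p = 0.00121). TFEB was much lower, at 1.65, 1.40 and 1.56 FPKM in the control libraries, 1.20, 1.25 and 0.870 at 10 mM and 1.06, 1.14 and 1.06 at 20 mM 2-DG. Its treated libraries were all below the control, and the 9 libraries held 201 to 395 recovered reads of it. TFEB fell with a log2 fold change of -0.28 at 20 mM (95% interval -0.48 to -0.081, adjusted p = 0.0332 by limma) and -0.27 at 10 mM (adjusted p = 0.045, called in 4 of the 18 settings), was called in 8 of the 18 settings at 20 mM and was not called there with median-ratio factors (adjusted p = 0.0559 by limma). These are transcript levels, and the proteins and their place in the cell were not measured.

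**Figure D4:**
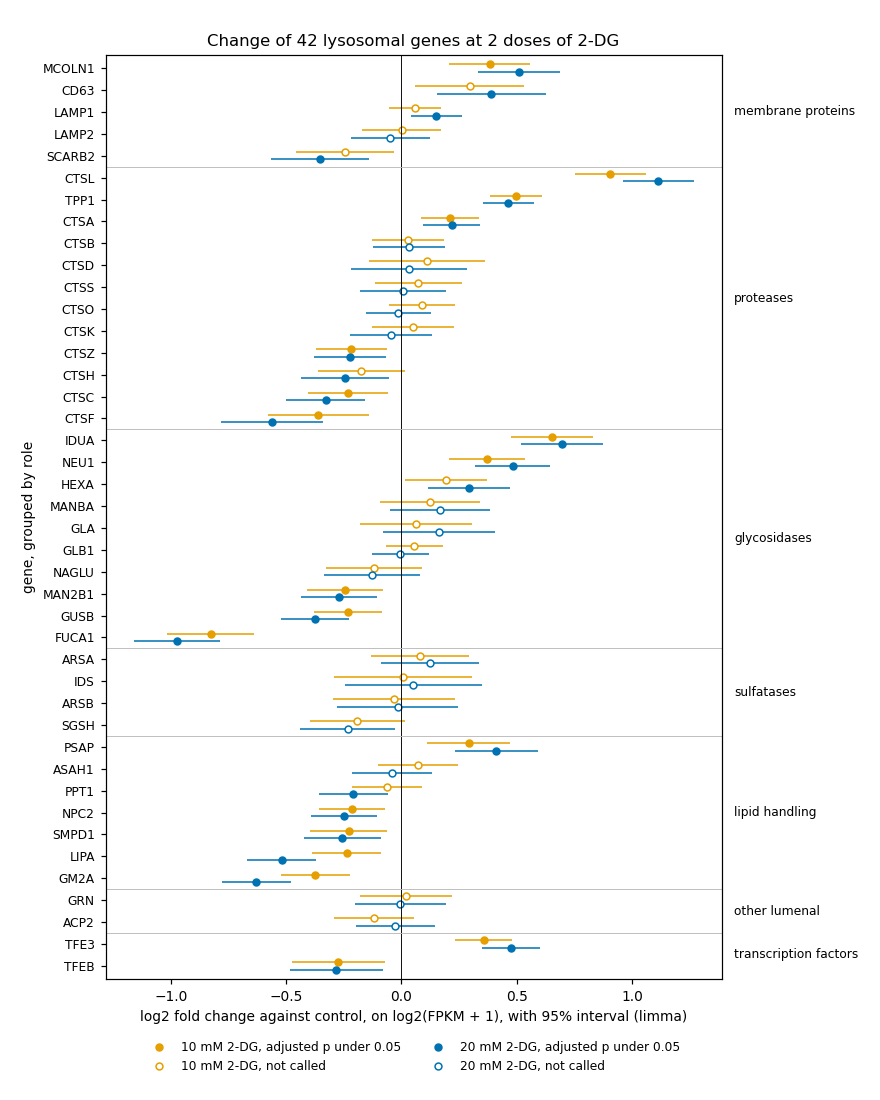
log2 fold change of the 42 genes at 10 mM and 20 mM 2-DG against the shared control, with 95% intervals from limma, filled where called and open where not, grouped by role. The values at 20 mM run from -0.97 (FUCA1) to 1.11 (CTSL).

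The comparison of 20 mM with 10 mM 2-DG found no called gene. limma called 0 of the 42, as it called 0 (0%) of all 16572 genes, while 3 of the 42 had an unadjusted p under 0.05 against 6.87% of all genes, and limma-voom also gave 3 by that measure. The 3 by limma were LIPA (-0.28, adjusted p = 0.32), GM2A (-0.25, adjusted p = 0.383) and CTSL (0.21, adjusted p = 0.523). The dose libraries did not overlap for 9 of the 42 genes, 3 higher and 6 lower at 20 mM, against 11.9% of all genes (4.71% and 7.14%). By the thresholds of fold and unadjusted p, limma called 0 of the 42 between the doses, as did limma-voom, and 1 of all genes, a higher one (0.00603%). All 42 intervals of the difference between the doses lay within 0.5 log2 units of 0. On log2(FPKM + 1) such a bound says little for low genes, whose changes are compressed. CTSO went from a mean of 0.448 FPKM at 10 mM to 0.348 at 20 mM, a change of -22.3%. Its dose libraries did not overlap, yet its log2 fold change was -0.10.

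Some calls were lost when 1 library was left out, for a few genes whichever library it was. At 20 mM 2-DG the split was 11 higher and 14 lower with all libraries, 10 and 8 without control library 1, 9 and 8 without control library 2 and 9 and 11, 1 of them new, without control library 3. It was 9 and 7 without 20 mM library 1, 8 and 8 without 20 mM library 2 and 8 and 10 without 20 mM library 3. Calls over all genes, 2544 higher and 3582 lower with all libraries, fell in the same fits. They numbered 2043 and 3208, 2159 and 3064, and 2088 and 2979 without control library 1, 2 and 3. Without 20 mM library 1, 2 and 3 they numbered 1943 and 2752, 1904 and 2874, and 2022 and 2892. LAMP1 lost its call in all 6 of these fits, CTSH in all but that without 20 mM library 1, CTSZ in all but control 3, PPT1 in all but 20 mM library 3 and TFEB in all but control 2. SCARB2 lost it without control 2 or 3 and 20 mM library 1 or 2, SMPD1 without control 1 or 2 and 20 mM library 1 or 2, and MAN2B1 without control 1 or 2 and 20 mM library 1 or 3. CD63 lost it without control 2 and 20 mM library 1 or 2, HEXA without control 3 and 20 mM library 2 or 3, NPC2 without 20 mM library 1 and CTSA without 20 mM library 3. Leaving out a 10 mM library changed only CTSH, which lost its call without library 2 or 3. At 10 mM the 11 falls became 4 (1 of them new), 3 and 7 without control library 1, 2 and 3. They became 6, 9 and 2 without 10 mM library 1, 2 and 3. Leaving out 20 mM library 1, 2 or 3, which enter that comparison only through the shared spread, gave 6, 6 and 5. Over all genes the falls at 10 mM numbered 2903 with all libraries and 2470, 2380 and 2354 without control library 1, 2 and 3. They numbered 2679, 2843 and 2343 without 10 mM library 1, 2 and 3. Without 20 mM library 1, 2 and 3 they numbered 2613, 2612 and 2633. CTSL, IDUA, MCOLN1, NEU1, PSAP, TFE3 and TPP1 were called higher at 20 mM in all 18 settings, and CTSC, CTSF, FUCA1, GM2A, GUSB and LIPA were called lower in all 18. At 10 mM this held for CTSL, IDUA, MCOLN1, NEU1, TFE3 and TPP1, and for FUCA1 and GM2A.

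Other genes of the lysosome were read from lists of their own, with the same test, beside 15.4% of all genes higher and 21.6% lower at 20 mM 2-DG, and no list was tested as a set. Of 21 tested subunits of the V-ATPase, the proton pump that acidifies lysosomes, 9 rose (42.9%) and 2 fell (9.52%) at 20 mM 2-DG, with a median log2 fold change of 0.17. ATP6V0D2 (5.09 to 10.5 FPKM, log2 fold change 0.91, adjusted p = 4.98e-05 by limma) and ATP6V0A4 (0.673 to 2.23 FPKM, log2 fold change 0.96, adjusted p = 0.00013) rose, and ATP6V0E2 fell (8.57 to 3.24 FPKM, log2 fold change -1.17, adjusted p = 2.94e-05). Of 20 genes of mannose-6-phosphate tagging and sorting 4 rose (20%) and 5 fell (25%; median -0.037), shares near those of all genes. The sorting receptor gene SORT1 fell (13.9 to 6.56 FPKM, log2 fold change -0.98, adjusted p = 3.22e-05 by limma), and M6PR, the cation-dependent mannose-6-phosphate receptor, rose (29.5 to 39.9 FPKM, log2 fold change 0.42, adjusted p = 0.00356). Of 29 further lysosomal hydrolases 3 rose (10.3%) and 11 fell (37.9%; median -0.12), the falls including NAAA, an acid amidase (3.91 to 1.96 FPKM, log2 fold change -0.73, adjusted p = 0.000162 by limma), and HYAL2, a hyaluronidase (10.9 to 6.69 FPKM, log2 fold change -0.62, adjusted p = 0.00141).

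Of 30 further membrane proteins and transporters 9 rose (30%) and 5 fell (16.7%; median 0.083). LAMP3, a LAMP family member, rose from a low level (0.698 to 4.83 FPKM, log2 fold change 1.78, adjusted p = 6.41e-06 by limma), as did CTNS, the cystine exporter (8.89 to 16.8 FPKM, log2 fold change 0.85, adjusted p = 1.62e-05), while the channel gene TPCN1 fell (23.3 to 11.1 FPKM, log2 fold change -1.01, adjusted p = 1.34e-05). Among 21 genes of the MiT/TFE factors and lysosomal nutrient sensing 4 rose (19%) and 3 fell (14.3%; median 0.11). RRAGC, a Rag GTPase that recruits mTORC1 to lysosomes (6.32 to 12.1 FPKM, log2 fold change 0.84, adjusted p = 0.0001 by limma), and FLCN, folliculin, which acts on it (6.47 to 10.7 FPKM, log2 fold change 0.65, adjusted p = 0.000102), rose, and PPP3CB, a catalytic subunit of the phosphatase calcineurin, fell (8.12 to 5.39 FPKM, log2 fold change -0.51, adjusted p = 0.00043). Of 35 autophagy genes 8 rose (22.9%) and 4 fell (11.4%; median 0.095). MAP1LC3B, an LC3 gene of the autophagosome membrane, rose (22.1 to 47.4 FPKM, log2 fold change 1.07, adjusted p = 5.18e-06 by limma) and MAP1LC3A fell (8.18 to 2.59 FPKM, log2 fold change -1.36, adjusted p = 3.42e-05). For the folding machinery of the endoplasmic reticulum, 19 of 20 genes rose by limma, with a median of 1.57 against -0.015 for the 42 lysosomal genes. The chaperone genes HSPA5 (245 to 1282 FPKM, log2 fold change 2.38, adjusted p = 1.43e-07 by limma) and HYOU1 (71.3 to 362 FPKM, log2 fold change 2.33, adjusted p = 1.72e-07) rose most. Between the doses limma called 0 genes of each of these 7 lists, as limma-voom called 0 of all genes, and the genes with an unadjusted p under 0.05 by limma numbered 2, 0, 1, 1, 1, 2 and 6 in the order above.

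**Figure D5:**
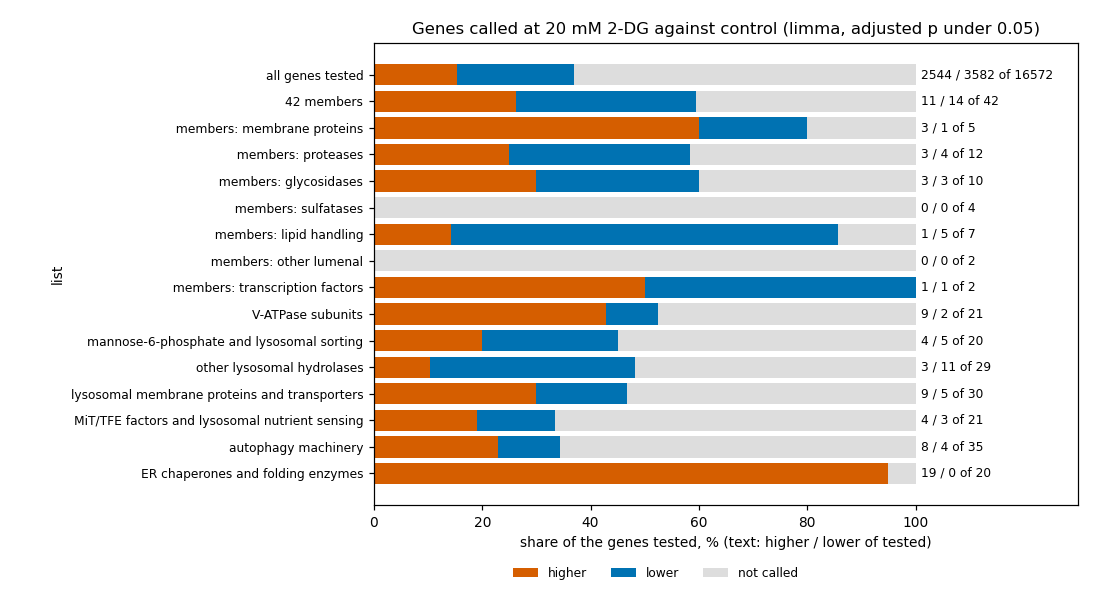
Share of tested genes called higher, lower or not called at 20 mM 2-DG by limma (adjusted p under 0.05), for all genes, the 42 lysosomal genes, their roles and related lists, with the counts at the right. The 42 genes have 11 higher and 14 lower, and the folding machinery 19 higher of 20.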

How the data were processed

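The authors extracted RNA with a Qiagen kit, sequenced it on an Illumina instrument and deposited 1 file of FPKM per library. FPKM are reads scaled to the length of the gene and the library total. The aligner, the counter, the annotation and whether counting used the strand are not given in the sources used here; the submitters' processing notes name the builds GRCh38 and hg38. The lactate-treated libraries were not analysed here.

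The tests were planned for FPKM. limma 3.58.1 in R 4.3.3 fitted log2(FPKM + 1) by group (lmFit), drew the 3 contrasts and moderated the spread by its trend with level (eBayes), all 9 libraries in 1 fit and no replicate block, with Benjamini-Hochberg adjustment over 16572 genes. A gene was tested if 3 or more libraries held 10 or more recovered reads when scaled to the median depth. Whole reads (tolerance 0.0001) were recovered for 32806 of 32806 genes above 0, from the library totals and the shortest gene length for which each of the 9 values is a whole number. They are not the authors' counts. Genes were called at an adjusted p under 0.05, or at a log2 fold change beyond 1 either way with p under 0.05 before adjustment, both by limma. The fold and p values are the study's thresholds for DESeq2, which needs counts, and the paper does not say if its p was adjusted.

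The members and the gene lists were chosen with earlier results of these data known. Values in every library are given for the 6 largest rises and 6 largest falls at 20 mM 2-DG among called genes with a mean of at least 1 FPKM, and for LAMP1, LAMP2, CTSD, CTSB, CTSL, PSAP, GRN, MCOLN1, TFEB and TFE3. From each related list, genes were named among the 4 with the largest absolute change, and 1 such gene is not reported here. Positions and exon overlaps are from GENCODE release 29 and promoters from RefSeq (GRCh38.p14). Pseudocount, filter, scaling, TPM, limma-voom, a replicate block, the groups in the fit and each library were varied. A planned count of glycosylation motifs in the proteins was not run. Python 3.11.15 and matplotlib 3.10.9 were used.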

Additional observations from a re-analysis of the deposited data

How the results depend on the processing

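The count of lysosomal genes called lower was the result most dependent on the processing. At 10 mM 2-DG it was 11, and 6 with no filter, 4 with median-ratio factors, 5 with the replicate block and 2 with only the 2 groups compared in the fit, and from 2 to 9 with 1 library left out. Over all genes it was 2903 at 10 mM, 2213 with no filter, 2484 with median-ratio factors and 2552 with the replicate block. It was 2250 with only the 2 groups compared, and from 2343 to 2843 with 1 library left out. At 20 mM 2-DG the count of lysosomal genes called lower was 14, 7 with median-ratio factors, and from 7 to 14 with 1 library left out. Over all genes it was 3582, 3058 with median-ratio factors, and from 2752 to 3803 with 1 library left out. The genes past the fold threshold at 20 mM numbered 1, and 2 with a pseudocount of 0.1, with TPM and with limma-voom, and from 1 to 2 with 1 library left out (2 without control library 2). Between the doses, all genes called lower numbered 0, and 3 with no filter. With 1 library left out they ranged from 0 to 3, and those called higher from 0 to 1, with the highest counts without 10 mM library 1. The median log2 fold change of the 42 genes between the doses was -0.025, 0.0036 with TPM, and from -0.048 to 0.03 with 1 library left out, the ends being without 10 mM library 3 and library 2. Against the control the median was 0.024 at 10 mM (-0.0052 with TPM, 0.062 with median-ratio factors, and from 0.0027 to 0.053 without control library 3 and 10 mM library 1) and -0.015 at 20 mM (0.024 with median-ratio factors, and from -0.039 to 0.010 without 20 mM library 3 and library 1). Single genes that were not called changed sign: LAMP2 (0.0029 with median-ratio factors, 0.024 without control library 3), CTSB (-0.0062 without 20 mM library 3) and GRN (0.050 with median-ratio factors, 0.0041 without 20 mM library 1). The cause was not tested. The rises stayed between 8 and 11 at 20 mM and between 6 and 10 at 10 mM over all settings. With 1 library left out the largest values of LAMP2, CTSB and GRN were -0.11 (without control library 1), 0.059 (without 20 mM library 1) and -0.050 (without control library 3). Deviations of same-numbered libraries had correlations from -0.41 to 0.29 between groups. With 3 libraries per group these cannot show whether the numbers pair the libraries, and the labels do not say. The largest correlations between groups were of control library 1 with 10 mM library 2 (0.52) and control library 2 with 10 mM library 1 (0.49), and their cause was not tested. The replicate block gave 7 higher and 5 lower genes at 10 mM and 10 higher and 12 lower at 20 mM. Over all genes it gave 1754 higher and 2552 lower at 10 mM and 2276 higher and 3270 lower at 20 mM. Leaving out a library keeps 2 in its group. The planned count of glycosylation motifs was not run.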
